A study of Mus musculus with 9 samples.

Results

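The matrix metalloproteinases (Mmp genes), the ADAMTS proteases (Adamts genes), the ADAMTS-like proteins (Adamtsl genes) and the tissue inhibitors of metalloproteinases (Timp genes) were examined in mouse thyroid. Members were chosen by gene symbol alone, as any row of the count table named Mmp, Adamts, Adamtsl or Timp followed by a number and at most 1 letter. That rule gave 51 of the 33924 genes in the table, namely 23 Mmp, 19 Adamts, 5 Adamtsl and 4 Timp genes.

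Matrix metalloproteinases are zinc enzymes, made as inactive precursors, that cut collagens, proteoglycans and other proteins outside the cell. ADAMTS proteases are related secreted enzymes, some of which cut large proteoglycans and some of which trim procollagens so that fibrils can form, while ADAMTS-like proteins share their ancillary domains without the protease and bind microfibrils. Timp proteins block metalloproteinases, and Timp2 also takes part on the cell surface in the activation of the gelatinase Mmp2 by the membrane-type enzyme Mmp14. In a gland such as the thyroid they are known mostly as products of the connective tissue, vessels and immune cells around the follicles.

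The study sequenced RNA of thyroids from mice labelled with a knockout of the SWI/SNF subunit gene Arid2, mice labelled with a knockout of the subunit gene Smarcb1, and wild-type mice, with 3 libraries in each group. SWI/SNF complexes move nucleosomes along DNA. Arid2 is found in the PBAF form, and Smarcb1 is a core subunit of most forms. Strain, age, sex, floxed alleles, the driver of any Cre and the time since deletion are not given in the sources used here. Whether the 3 libraries of a group are 3 separate animals is not stated either, so the p-values speak only for the variation among these 9 libraries, which may be technical.

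Libraries held between 33666251 and 89553766 counted reads, and the Arid2-labelled ones were the deepest. The members took 0.112% to 0.157% of the reads of a library, and 44 to 47 of the 51 had at least 1 read in any given library. Smarcb1 itself was lower in the Smarcb1-labelled libraries in 3 of 3, by a log2 fold change of -0.36 (SE 0.11), with an adjusted p of 0.0651 in edgeR's quasi-likelihood test. Arid2 was not lower in the Arid2-labelled libraries, at a log2 fold change of 0.13 (SE 0.16). Which exons were deleted is not given, so counts over a whole gene do not check the label, and the groups are called by their labels throughout. The summed level of the follicular cell markers was 228183 to 324302 CPM (counts scaled to library size) in all libraries, most of it Tg, while Slc26a4 was near 0. Of 7 tested, 1 had a positive log2 fold change against wild type in each labelled group. Called were 0 for Arid2-labelled and 1, lower, for Smarcb1-labelled libraries. Between the labelled groups 2 were called lower in Smarcb1-labelled libraries. Foxe1 measured 201 to 278.5 CPM in wild type, 118 to 173.5 CPM in Arid2-labelled and 44.7 to 61.8 CPM in Smarcb1-labelled libraries. Slc5a5 measured 389 to 533, 105 to 143 and 113 to 462 CPM in the same groups. Markers of other tissues were uneven. The summed level of 8 thymocyte markers reached 1110 CPM in replicate 1 of the Arid2-labelled group and 188 CPM in replicate 2 of the Smarcb1-labelled group, against 9.93 to 29.2 CPM elsewhere. The 3 parathyroid markers summed to 6092 to 16992 CPM in the Smarcb1-labelled libraries, against 8.16 to 4320 CPM in wild type and 10.6 to 1581 CPM in the Arid2-labelled libraries. Every Smarcb1-labelled library lay above every other library, so a covariate of these markers moves largely with that label. A call kept or lost with it below does not separate parathyroid content from the label. Airway epithelium markers summed to 26.3 to 76.8 CPM in the Arid2-labelled libraries, against 3.95 to 8.65 CPM in wild type and 1.22 to 14.2 CPM in the Smarcb1-labelled ones, with 3 of 6 called higher in Arid2-labelled than in wild-type libraries. Erythroid markers summed to 289 to 1394 CPM in wild type, 250.3 to 651 CPM in Arid2-labelled and 94.2 to 184 CPM in Smarcb1-labelled libraries, with 2 of 3 called lower in Smarcb1-labelled than in wild-type libraries. Cartilage markers summed to 21.1 to 23.4 CPM in wild type, 27.0 to 50.1 CPM in Arid2-labelled and 210, 30.8 and 147 CPM in Smarcb1-labelled libraries. Of 7 of them tested, 1 was called higher in Smarcb1-labelled than in wild-type libraries. Skeletal muscle markers ran from 16.6 to 1404 CPM and fat markers from 519 to 2713 CPM over all libraries. The part of these tissues in any result below was not tested beyond the values given.

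In thyroid RNA 2 inhibitors stood above all proteases. Levels were compared between genes as CPM per kilobase of the longest annotated transcript. Timp3, an inhibitor that binds to the matrix and also blocks several ADAMTS enzymes, had the highest mean level of all members in each group, with 99.6 CPM per kilobase in wild type, 107 in the Arid2-labelled and 125 in the Smarcb1-labelled libraries. Timp2 came next, with 80.1, 64.1 and 72.9 CPM per kilobase. The most abundant protease was Mmp2, the constitutive gelatinase of connective tissue, with 31.3, 22.1 and 22.4 CPM per kilobase. Behind it stood the membrane-type enzymes Mmp14 (15.9, 10.2 and 16.5) and Mmp15 (13.4, 10.5 and 8.73) and the stromelysin Mmp11 (11.1, 9.31 and 8.29). The leading Adamts genes were Adamts10, which acts on fibrillin microfibrils (7.58, 8.61 and 5.83), and the procollagen N-propeptidase Adamts2 (5.23, 4.32 and 3.28). Timp1 and Timp4 ranked only 13th and 24th of the 51.

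Other members were scarce. Mmp1a, Mmp1b and Mmp20 had 0 counts in all 9 libraries, which with 3 counts as the limit allows at most 0.0330 CPM in the deepest library and 0.0910 CPM in the least covered one. Mmp7 had 2 counts in all, Mmp10 4, Mmp21 10, Mmp8 19, Adamts19 22 and Mmp25 91, and none of these 9 genes passed the filter on low counts. The other 42 members did: 15 Mmp, 18 Adamts, 5 Adamtsl and 4 Timp genes. Mmp9, the gelatinase of leukocytes, had group means of 0.333 to 0.713 CPM per kilobase, far under Mmp2. The neutrophil markers, among them S100a8 and S100a9, summed to at most 5.997 CPM.

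**Figure D1:**
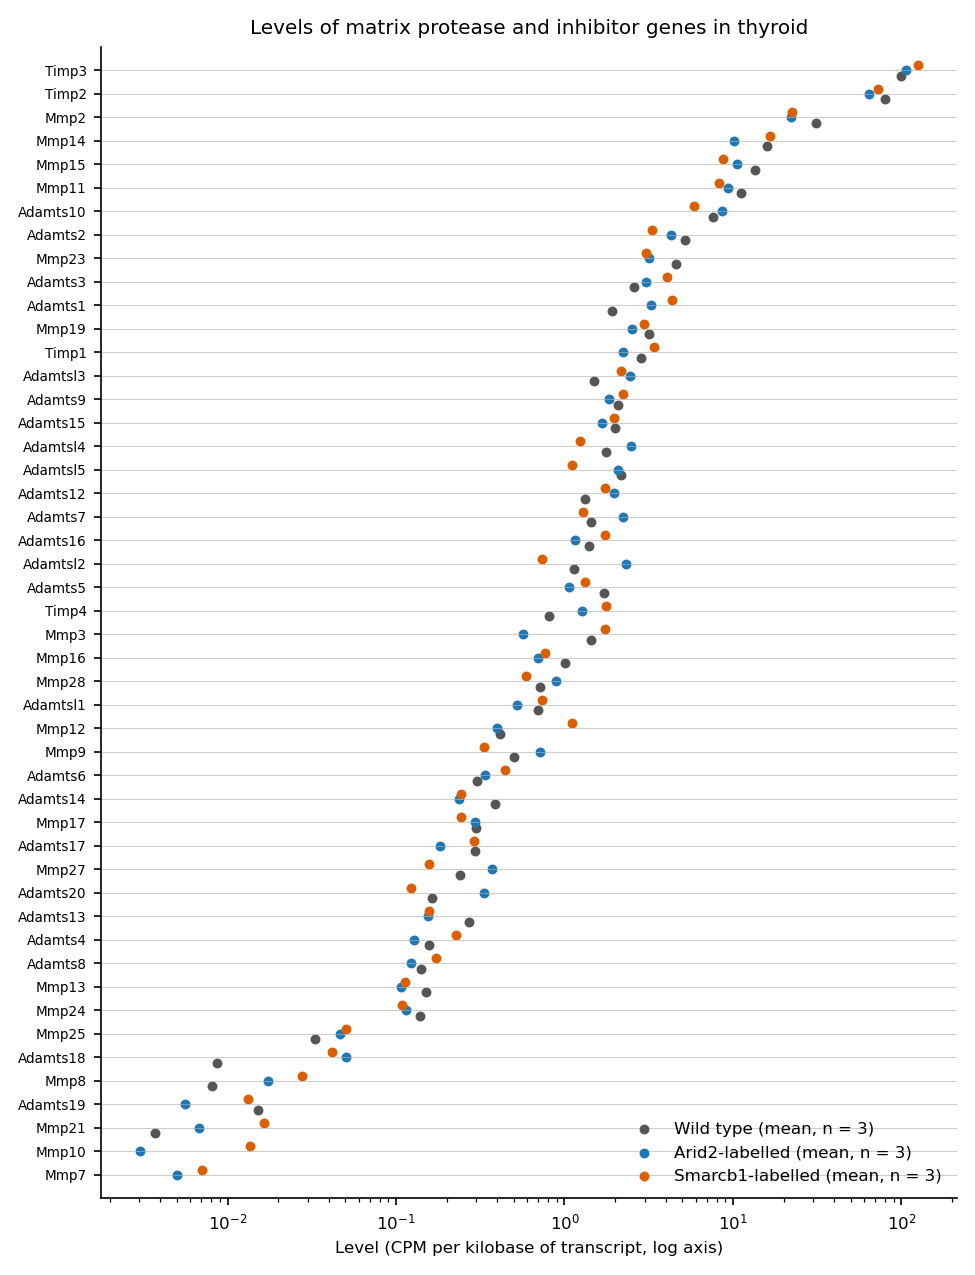
Mean level of each member in CPM per kilobase of transcript on a log axis, with 1 point per group (n = 3 libraries). Timp3 and Timp2 lead, Mmp2 is the highest protease, and the genes at the foot had fewer than 100 counts over all libraries; Mmp1a, Mmp1b and Mmp20 had none and are not drawn, nor are group means of 0.

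Of the 8 Mmp genes that failed the filter, 6 lie together on 1 chromosome. In the GRCm38 annotation, 10 Mmp genes follow each other on chromosome 9 (Mmp13, Mmp12, Mmp1b, Mmp3, Mmp1a, Mmp10, Mmp8, Mmp27, Mmp20 and Mmp7), and they include both mouse counterparts of the interstitial collagenase, the neutrophil collagenase Mmp8, the enamel protease Mmp20 and the macrophage elastase Mmp12. Only Mmp3, Mmp12, Mmp13 and Mmp27 of these 10 passed the filter. In wild type the 10 genes gave 1.52% to 2.17% of all Mmp counts, and in the Arid2-labelled libraries 1.54% to 2.57%. The 3 Smarcb1-labelled libraries had 3.97%, 6.93% and 0.995%, which lie on both sides of the wild-type range. Mmp12 made most of the highest value, with 580 counts (13.1 CPM) in Smarcb1-labelled replicate 2 against 18 to 202 counts in the other 8 libraries. Mmp12 overlaps exons of Mmp1b on the opposite strand, so its reads are uncertain without strand, although Mmp1b itself had no counts. The macrophage markers summed to 208 CPM in that library and to 123 to 251 CPM over all.

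Promoters of the chromosome 9 genes differed from those of the other members searched in the motifs they hold. RefSeq promoter windows (GRCm38.p6, 250 bases before to 50 after the start of a gene) were at hand for 36 members, among them all 10 of the cluster. The members without a window, Mmp2 and Mmp9 among them, all lie outside the cluster and were not searched. Each window was searched on both strands for the AP-1 motif TGANTCA, the TATA motif TATAAA and the GC box GGGCGG, none of which contains another. The AP-1 motif was in 8 of the 10 cluster genes and 0 of the 26 others, the TATA motif in 9 and 3, and the GC box in 0 and 22. Of 32851 windows of the same length in all genes, 7.81% held the AP-1 motif, 13.6% the TATA motif and 35.7% the GC box. GC content was 37.7% to 52.0% in the cluster and at least 53.3% in the 26 others. A match describes the letters only and is not a bound site.

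The windows below show that contrast. Mmp14, Adamts1, Adamts2, Adamtsl2 and Mmp27 are members called in a comparison, and Mmp3, Mmp13 and Timp2, called in none, are shown as examples of both kinds of promoter. Mmp3, a stromelysin at 0.572 to 5.57 CPM, and Mmp13, a collagenase at 0.0812 to 0.564 CPM, come from the cluster (chr9:7445572-7445871 and chr9:7272264-7272563, plus strand), as does Mmp27 (chr9:7571146-7571445, plus strand). Mmp14 (chr14:54431348-54431647, plus strand), Adamts1 (chr16:85803064-85803363, minus strand), Adamts2 (chr11:50601835-50602134, plus strand), Adamtsl2 (chr2:27079129-27079428, plus strand) and Timp2 (chr11:118355362-118355661, minus strand) lie elsewhere. Each is written 5′ to 3′ on the strand of its gene, and capitals mark a match to any of the 3 motifs on either strand.
Mmp3: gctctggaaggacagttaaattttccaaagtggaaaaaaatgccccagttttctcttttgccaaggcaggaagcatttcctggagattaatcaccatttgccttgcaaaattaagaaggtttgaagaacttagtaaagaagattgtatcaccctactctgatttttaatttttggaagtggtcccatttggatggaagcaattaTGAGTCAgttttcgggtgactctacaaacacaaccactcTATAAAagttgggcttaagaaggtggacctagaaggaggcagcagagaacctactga
Mmp13: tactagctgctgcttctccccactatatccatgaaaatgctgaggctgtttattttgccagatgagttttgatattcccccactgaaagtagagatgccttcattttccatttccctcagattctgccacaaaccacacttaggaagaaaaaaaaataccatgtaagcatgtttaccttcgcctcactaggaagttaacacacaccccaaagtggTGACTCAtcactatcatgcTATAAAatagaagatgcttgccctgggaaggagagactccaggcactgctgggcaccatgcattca
Mmp27: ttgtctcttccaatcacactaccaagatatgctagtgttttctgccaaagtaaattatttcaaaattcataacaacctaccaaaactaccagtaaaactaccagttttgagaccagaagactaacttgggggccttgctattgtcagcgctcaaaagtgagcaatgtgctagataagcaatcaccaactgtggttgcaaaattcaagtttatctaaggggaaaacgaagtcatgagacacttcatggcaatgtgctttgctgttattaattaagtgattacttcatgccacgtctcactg
Mmp14: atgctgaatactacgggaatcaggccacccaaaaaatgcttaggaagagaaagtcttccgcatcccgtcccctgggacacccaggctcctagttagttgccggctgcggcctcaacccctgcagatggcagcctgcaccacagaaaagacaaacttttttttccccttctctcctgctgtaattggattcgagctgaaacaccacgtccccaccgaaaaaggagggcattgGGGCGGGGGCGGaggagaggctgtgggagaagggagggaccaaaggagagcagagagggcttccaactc
Adamts1: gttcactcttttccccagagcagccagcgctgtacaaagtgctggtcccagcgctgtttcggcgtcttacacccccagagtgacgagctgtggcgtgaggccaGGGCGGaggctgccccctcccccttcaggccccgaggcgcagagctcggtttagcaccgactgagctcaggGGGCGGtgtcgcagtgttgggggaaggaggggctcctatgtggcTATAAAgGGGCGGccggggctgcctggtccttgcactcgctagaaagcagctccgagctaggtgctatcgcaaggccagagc
Adamts2: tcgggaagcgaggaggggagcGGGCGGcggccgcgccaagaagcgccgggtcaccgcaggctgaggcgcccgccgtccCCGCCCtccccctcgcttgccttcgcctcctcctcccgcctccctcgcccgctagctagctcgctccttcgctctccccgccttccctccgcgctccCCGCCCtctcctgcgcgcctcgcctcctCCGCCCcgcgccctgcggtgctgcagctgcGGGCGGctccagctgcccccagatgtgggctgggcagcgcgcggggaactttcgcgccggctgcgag
Adamtsl2: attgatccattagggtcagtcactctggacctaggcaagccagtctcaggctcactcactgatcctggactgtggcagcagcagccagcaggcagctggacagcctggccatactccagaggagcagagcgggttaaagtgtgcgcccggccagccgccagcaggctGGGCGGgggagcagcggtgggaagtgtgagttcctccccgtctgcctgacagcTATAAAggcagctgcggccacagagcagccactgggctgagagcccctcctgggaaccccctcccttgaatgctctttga
Timp2: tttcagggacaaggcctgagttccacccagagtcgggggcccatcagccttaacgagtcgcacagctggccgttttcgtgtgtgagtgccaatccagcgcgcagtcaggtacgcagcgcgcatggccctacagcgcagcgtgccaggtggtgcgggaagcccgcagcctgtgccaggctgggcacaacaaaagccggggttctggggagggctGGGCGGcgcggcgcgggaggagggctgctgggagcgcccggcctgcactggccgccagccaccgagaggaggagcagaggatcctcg
In Mmp3 the AP-1 motif stood at position -46 and the TATA motif at -7 from the annotated start, and in Mmp13 at -35 and -16, while Mmp27 held none of the 3 motifs. Mmp14, Adamts2 and Timp2 showed GC boxes only. Adamts1 joined both kinds, with 3 GC boxes and a TATA motif at -32, and so did Adamtsl2, with 1 GC box and a TATA motif at -30.

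Smarcb1-labelled thyroids were set against wild type to ask which members differ where this subunit is labelled as lost. Among them, the aggrecan- and versican-cutting protease Adamts1 rose, while the gelatinase Mmp2 and the procollagen N-propeptidase Adamts2 fell. These 3 were the members called of 42 tested (7.14%), 1 higher and 2 lower. Of all 17079 genes tested, 7.9% were called at an adjusted p under 0.05 (368 higher and 981 lower), so the members' share lay near the background. At an unadjusted p under 0.05 there were 9 members of 42, against 28.4% of all genes.

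Adamts1 measured 8.58, 7.23 and 12.3 CPM in the wild-type libraries and 19.3, 22.3 and 21.7 CPM in the Smarcb1-labelled ones. Every Smarcb1-labelled library stood above every wild-type library. Endothelial markers summed to 390, 602 and 590.1 CPM in these 3 libraries and 336 to 467 CPM in wild type, with 2 of 7 called higher, and their part in the value of Adamts1 was not tested. The test put its log2 fold change at 1.17 (SE 0.20, adjusted p = 0.0139, edgeR quasi-likelihood test with Benjamini-Hochberg adjustment), or 2.26-fold higher. The call was lost when wild-type replicate 1 (adjusted p = 0.0616) or Smarcb1-labelled replicate 3 (0.0533) was left out. It stayed with the parathyroid markers as a covariate (0.00764), and without both libraries with thymocyte markers all 3 called members stayed called and Adamtsl5 joined them.

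Mmp2 measured 100.1, 99.1 and 89.9 CPM in wild type and 70.5, 70.3 and 66.4 CPM in the Smarcb1-labelled libraries. The groups did not overlap, and the Smarcb1-labelled libraries lay within a few CPM of each other. Mmp2 fell by 0.48 on the log2 scale (SE 0.10, adjusted p = 0.0218, edgeR), which is 1.39-fold lower.

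Adamts2, which removes the amino-terminal propeptide of fibrillar procollagens, measured 38.6, 32.7 and 42.7 CPM in wild type and 21.96, 22.7 and 26.9 CPM in the Smarcb1-labelled libraries. All 3 Smarcb1-labelled values lay under the lowest wild-type value. It fell by 0.67 on the log2 scale (SE 0.13, adjusted p = 0.0205, edgeR), which is 1.59-fold lower. Both calls were lost when the trend of counts with GC content was removed (adjusted p = 0.304 for Mmp2 and 0.108 for Adamts2), with the parathyroid markers as a covariate (0.104 and 0.122) or without wild-type replicate 1 (0.0878 and 0.0724). Mmp2 also lost its call without wild-type replicate 2 (0.0710) or Smarcb1-labelled replicate 3 (0.0796), and Adamts2 without wild-type replicate 3 (0.0643) or Smarcb1-labelled replicate 1 (0.0567). Summed fibroblast markers were 2514 to 2777 CPM in wild type and 3071, 2043 and 2141 CPM in the Smarcb1-labelled libraries, with 1 of 10 markers called higher and 1 lower, and both genes stayed called with these markers as a covariate. The fibroblast list holds Col1a2, itself called lower, and Thy1, at 176 CPM in Arid2-labelled replicate 1, so it does not measure fibroblasts alone. In bulk tissue, fewer cells of a type and less RNA per cell cannot be told apart.

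Groups that did not overlap were no more frequent among members than among all genes. In this comparison 2 of the 42 had every Smarcb1-labelled library above every wild-type library and 8 had every one below, 10 in all, against 33.7% of all genes. Adamtsl5, a microfibril-binding ADAMTS-like protein, was among the 8, at 8.34 to 9.58 CPM in wild type and 3.15 to 5.93 CPM in the Smarcb1-labelled libraries, with a log2 fold change of -0.97 (SE 0.26) and an adjusted p of 0.0554. Mmp15 measured 57.9 to 79.2 CPM in wild type and 28.9 to 54.9 CPM in the Smarcb1-labelled libraries (log2 fold change -0.62, SE 0.23, adjusted p = 0.118, edgeR). Mmp11, a stromelysin of stroma, measured 22.6 to 27.3 and 15.5 to 21.6 CPM (fitted log2 fold change -0.43, SE 0.15, adjusted p = 0.104, edgeR). Neither passed the test. Mmp11 is the direct neighbour of Smarcb1 on chromosome 10 and on the same strand, and its exons overlap those of Chchd10 on the other strand, so its reads are uncertain.

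**Figure D2:**
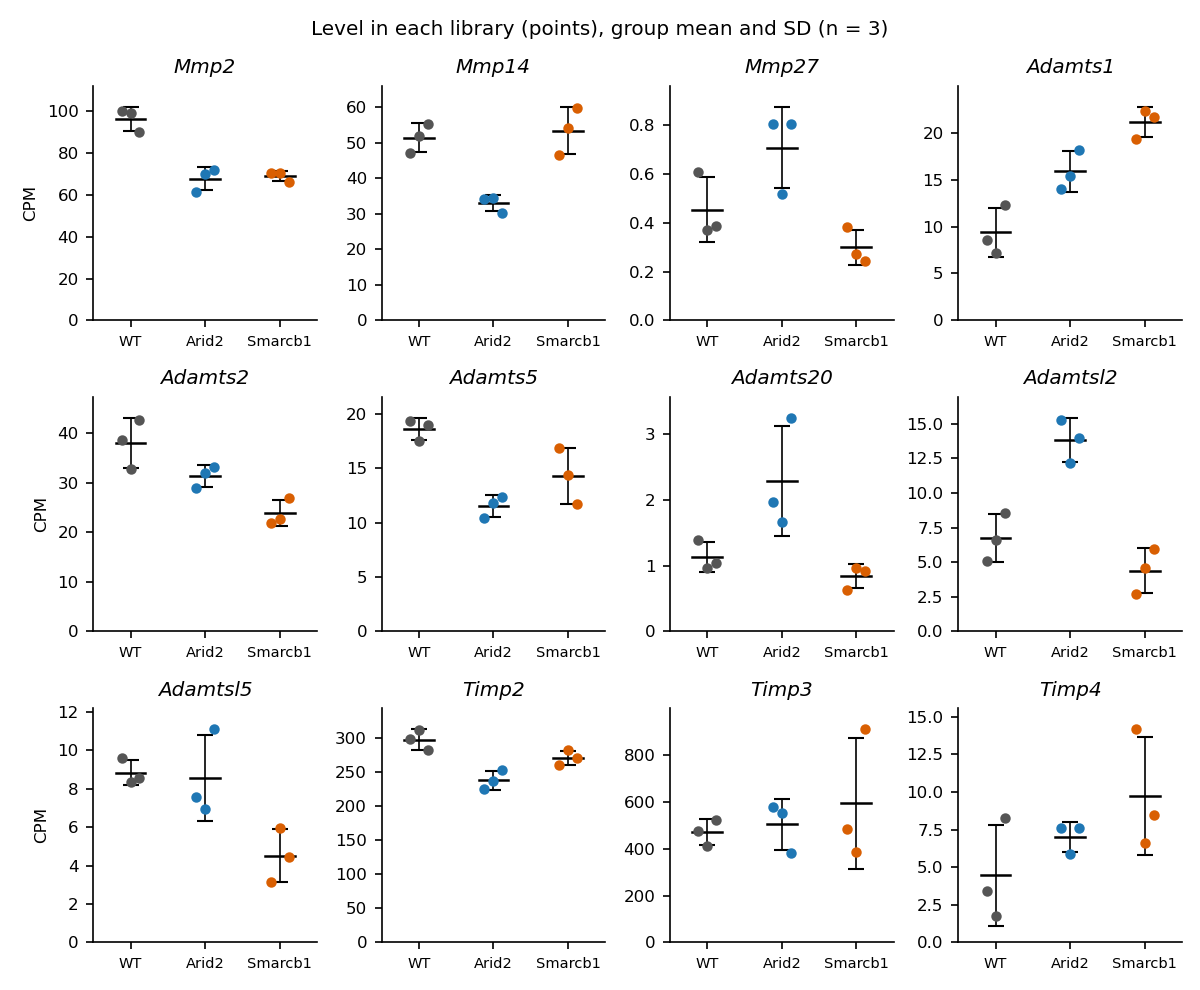
CPM of 12 members in each library (points), with the group mean (bar) and SD (whiskers, n = 3); WT is wild type and the axes start at 0. Mmp2 and Adamts2 are lower and Adamts1 higher in all Smarcb1-labelled libraries than in wild type, and Timp3 has a single high point of 909 CPM.

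In Arid2-labelled against wild-type thyroids, no member passed the test. Of the 42 tested, 0 were called, where 0.556% of all genes were (95 of 17079), so the count of 0 is near the background. At an unadjusted p under 0.05 there were 12 of the 42 members, 6 higher and 6 lower, a larger share than the 14.9% of all genes. DESeq2's Wald test called 6 of the 42 (Adamts1, Adamts5, Adamtsl2, Mmp14, Mmp2 and Timp2), and it called 882 of all 17079 genes. Groups did not overlap for 11 members, 6 higher and 5 lower, against 25.5% of all genes.

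The smallest p belonged to Mmp14, the collagenase of the cell surface. It measured 47.2, 52.1 and 55.2 CPM in wild type and 34.2, 34.4 and 30.3 CPM in the Arid2-labelled libraries. The groups did not overlap, and the log2 fold change was -0.64 (SE 0.12) with an adjusted p of 0.0527 in edgeR's test. It was called, as the only member, with DESeq2's size factors, with a filter at 1 CPM, with 6 libraries in the fit, with the GC trend removed (adjusted p = 0.0386) and without Smarcb1-labelled replicate 1. Mmp14 was not called with library totals, no filter, limma-voom, or parathyroid or fibroblast markers as a covariate. Nor was it called when any 1 wild-type or Arid2-labelled library was left out. Without Arid2-labelled replicate 1 and Smarcb1-labelled replicate 2, the libraries with thymocyte markers, its adjusted p was 0.117.

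Mmp2 was also lower in all Arid2-labelled libraries, reading 61.6, 70.1 and 72.0 CPM (fitted log2 fold change -0.51, SE 0.10, adjusted p = 0.0572, edgeR). The range of its Smarcb1-labelled libraries lay inside that of the Arid2-labelled ones, and both groups are set against the same 3 wild-type libraries. Adamts5, the main aggrecanase of cartilage, measured 17.5 to 19.4 CPM in wild type and 10.4 to 12.4 CPM in the Arid2-labelled libraries (log2 fold change -0.69, SE 0.15, adjusted p = 0.0918, edgeR). Timp2 measured 282 to 311 and 225 to 252 CPM (fitted log2 fold change -0.32, SE 0.10, adjusted p = 0.164, edgeR).

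On the other side stood Adamts1, with 13.98, 15.4 and 18.2 CPM for the Arid2-labelled group, above all wild-type libraries (log2 fold change 0.76, SE 0.20, adjusted p = 0.127, edgeR). Adamts1 and Adamts5 are direct neighbours on chromosome 16, and their fold changes had opposite signs against wild type in both labelled groups. Adamts18 had 0, 1 and 4 counts in wild type and 27, 17 and 18 in the deeper Arid2-labelled libraries, or 0.266 to 0.297 CPM. Its log2 fold change of 2.47 (SE 0.67) did not pass the test (adjusted p = 0.133, edgeR), and so few counts leave its size loose. Adamts18 passed the filter on low counts only through the labelled libraries, where it is higher. Endothelial markers summed to 588 to 708 CPM in the Arid2-labelled libraries and 336 to 467 CPM in wild type, with 1 of 7 called, and their part in the values of these genes was not tested.

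Set directly against each other, Smarcb1-labelled and Arid2-labelled thyroids differed in 5 members. Mmp14 rose, and Adamtsl2, Adamts20, Mmp27 and Adamtsl5 fell in the Smarcb1-labelled libraries relative to the Arid2-labelled ones. That is 11.9% of the 42 tested, against 16.3% of all genes (1187 higher and 1592 lower), so the share was not above the background. Groups did not overlap for 17 members, 9 higher and 8 lower, against 38.8% of all genes. At an unadjusted p under 0.05 there were 12 members, against 35.8% of all genes.

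Mmp14 measured 46.7, 54.0 and 59.7 CPM in the Smarcb1-labelled libraries, every one above the Arid2-labelled libraries and overlapping wild type. The test put its log2 fold change at 0.70 (SE 0.12, adjusted p = 0.0102, edgeR), or 1.62-fold higher. The call was lost when Arid2-labelled replicate 3 was left out (adjusted p = 0.0562) or with the parathyroid markers as a covariate (0.0744).

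Adamtsl2, which binds fibrillin and is tied to the control of TGF-beta in connective tissue, measured 15.3, 12.2 and 13.99 CPM in the Arid2-labelled libraries, 2.70, 4.57 and 5.93 CPM in the Smarcb1-labelled ones and 5.10, 6.63 and 8.57 CPM in wild type. The Arid2-labelled libraries lay above both other groups. The airway epithelium markers did so as well, with 3 of 6 called lower in Smarcb1-labelled than in Arid2-labelled libraries, and their part in the values of Adamtsl2 was not tested. Adamtsl2 fell by 1.65 on the log2 scale between Smarcb1-labelled and Arid2-labelled libraries (SE 0.30, adjusted p = 0.0124, edgeR), which is 3.14-fold lower. Against wild type the log2 fold changes were 1.03 (SE 0.29, adjusted p = 0.149) for Arid2-labelled and -0.62 (SE 0.29, adjusted p = 0.200) for Smarcb1-labelled libraries, so neither passed edgeR's test.

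Adamts20, a protease known from melanoblast migration, had the same order of group means, with 1.97, 1.66 and 3.24 CPM in Arid2-labelled, 0.636, 0.973 and 0.920 CPM in Smarcb1-labelled and 0.968 to 1.40 CPM in wild-type libraries. It fell by 1.44 (SE 0.32, adjusted p = 0.0228, edgeR), a call lost without Smarcb1-labelled replicate 1 (0.0759) or replicate 3 (0.0627). Mmp27, a little-studied member of the chromosome 9 cluster, had only 9 to 73 counts a library, with 0.803, 0.516 and 0.803 CPM against 0.382, 0.272 and 0.244 CPM. It fell by 1.24 (SE 0.34, adjusted p = 0.0394, edgeR), but kept its call in only 4 of 20 alternative analyses and lost it whichever of the 9 libraries was left out (0.0530 to 0.131). Adamtsl5 measured 7.58, 6.96 and 11.1 CPM in Arid2-labelled and 3.15, 5.93 and 4.47 CPM in Smarcb1-labelled libraries and fell by 0.92 (SE 0.26, adjusted p = 0.0448, edgeR), a call kept in 6 of 21. Of the 9 libraries only Smarcb1-labelled replicate 2 could be left out with Adamtsl5 still called. Leaving out Arid2-labelled replicate 3 ended all 5 calls, with adjusted p-values of 0.0531 for Adamtsl2, 0.0562 for Mmp14 and 0.0895 for Adamts20. The parathyroid markers as a covariate, which move largely with the Smarcb1 label, ended all 5 as well. The fibroblast markers as a covariate ended 4, those of Adamtsl2 (0.0865), Mmp27 (0.113), Adamts20 (0.145) and Adamtsl5 (0.235), while Mmp14 stayed called (0.0368). Without both libraries with thymocyte markers, 5 members were called, 4 of them the same, with Adamtsl4 in place of Mmp27.

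**Figure D3:**
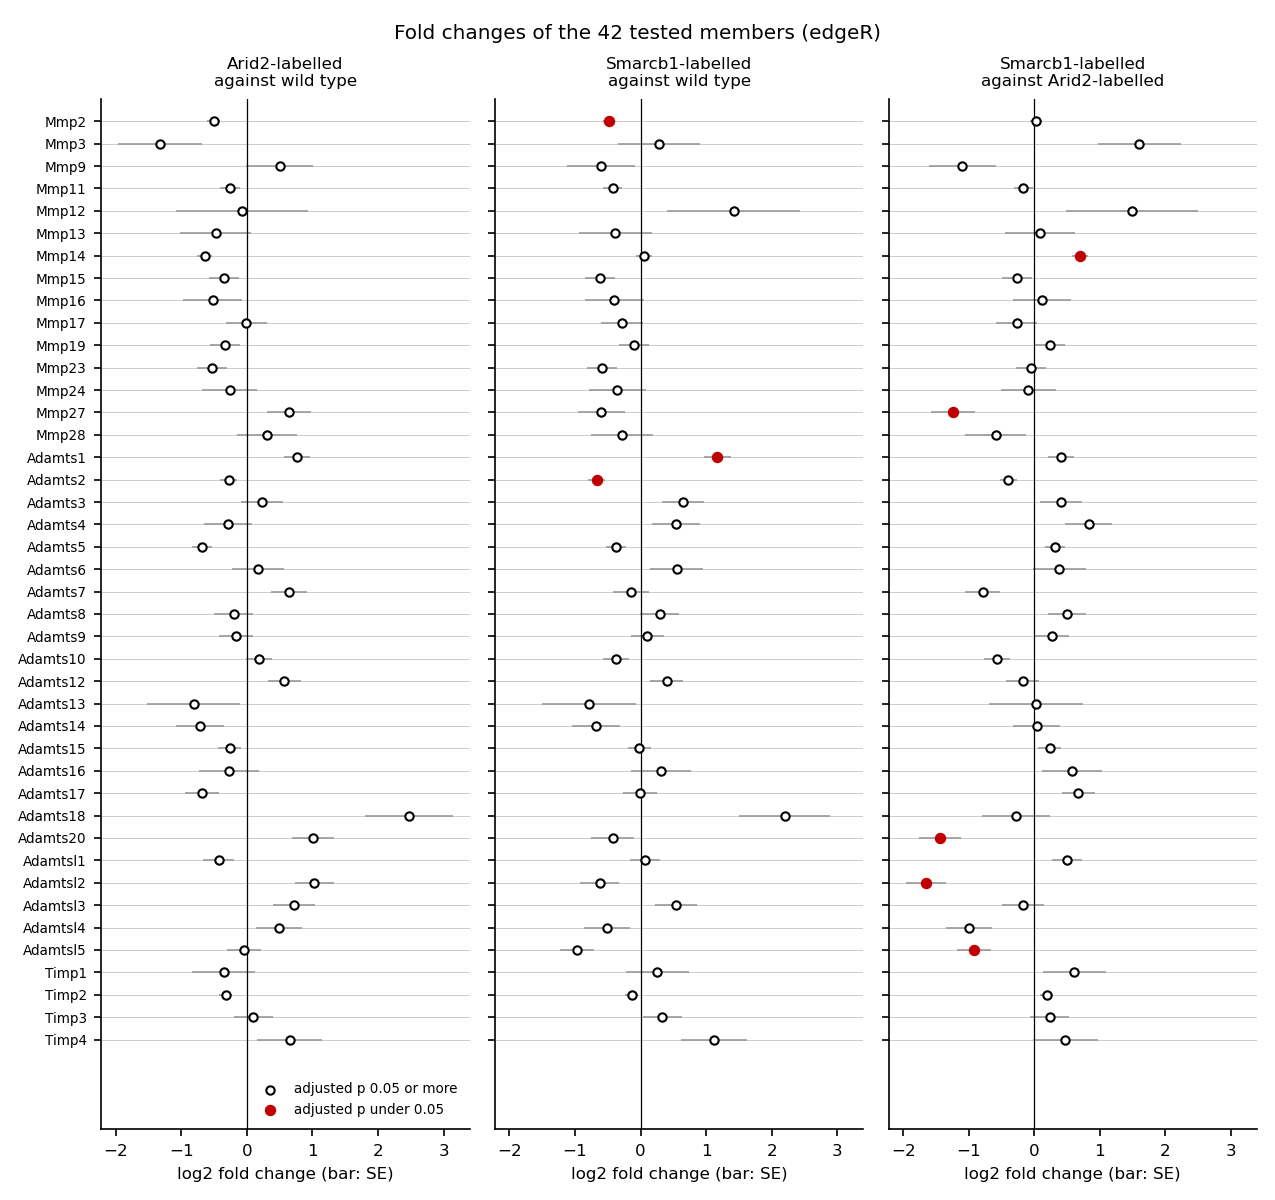
Log2 fold change (point) and SE (bar) of the 42 members tested by edgeR, in 3 panels for the 3 comparisons, grouped by family. Filled points passed an adjusted p under 0.05: none for Arid2-labelled against wild type, 3 for Smarcb1-labelled against wild type and 5 between the labelled groups.

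By family, 12 of the 15 Mmp genes tested had a negative log2 fold change against wild type in each labelled group, under all 3 scalings tried. These 2 comparisons share the wild-type libraries. The values had medians of -0.33 for Arid2-labelled and -0.39 for Smarcb1-labelled. The medians of all genes were 0.02 and 0.05. None of these scalings removes the trend with GC content. At 55% to 60% GC, which holds Mmp2, Mmp11 and Mmp15 among others, all genes had a median of -0.35 in the Smarcb1-labelled comparison. At 40% to 45% GC the median of all genes was 0.29, and there Mmp13, Mmp16 and Mmp27 were negative and Mmp12 positive. The part of GC content in the values of the family was not tested. Of the 5 membrane-type enzymes tested, 5 and 4 were negative and edgeR's test called none, while DESeq2's Wald test called Mmp14 in the Arid2-labelled and Mmp15 in the Smarcb1-labelled comparison. The Adamts genes were split, with 8 of 18 positive for Arid2-labelled and 9 of 18 for Smarcb1-labelled libraries. Over all 42 members the medians were -0.23, -0.14 and, between the labelled groups, 0.06.

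The 5 Adamtsl genes had median log2 fold changes of 0.49 for Arid2-labelled and -0.51 for Smarcb1-labelled against wild-type libraries. Set against each other, 4 were lower in the Smarcb1-labelled than in the Arid2-labelled libraries, 2 of them called (Adamtsl2 and Adamtsl5), with a median over the 5 of -0.92. Adamtsl4, tied to the fibres that hold the lens, measured 7.95 to 12.1 CPM in Arid2-labelled and 3.43 to 7.11 CPM in Smarcb1-labelled libraries (log2 fold change -0.996, SE 0.35, adjusted p = 0.0787, edgeR). Adamtsl3, by contrast, ran at 16.8 to 19.2 and 12.2 to 22.003 CPM and overlapped (log2 fold change -0.18, SE 0.32). Of the remaining leading proteases, Adamts10 measured 33.8 to 37.9 and 17.3 to 29.4 CPM in the same groups (log2 fold change -0.56, SE 0.20, adjusted p = 0.0770, edgeR). Between these groups the median of all genes was -0.41 at 55% to 60% GC, the range of Adamtsl5 and Adamts10. It was -0.77 at 60% or more, the range of Adamtsl4, and -0.13 at 50% to 55%, the range of Adamtsl1 and Adamtsl2. Adamts3, a propeptidase that also acts on Vegfc, varied within groups, with 9.39 to 20.7 CPM in Smarcb1-labelled and 6.89 to 12.9 CPM in wild-type libraries (log2 fold change 0.64, SE 0.32).

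None of the 4 inhibitors passed edgeR's test in any comparison, although Timp2 did between the labelled groups with the GC trend removed and Timp4 did in Smarcb1-labelled against wild-type libraries without wild-type replicate 3. Timp3 measured 475, 413 and 523 CPM in wild type, 578, 554 and 380.1 CPM in Arid2-labelled and 485, 384 and 909 CPM in Smarcb1-labelled libraries. The groups overlapped, and Smarcb1-labelled replicate 3 stood well above the other 8 libraries. Against wild type this gave a log2 fold change of 0.33 (SE 0.30), or of -0.11 (SE 0.21) without that library. Timp2 had the smallest spread of the 4 in proportion to its mean, with SDs of 10.5 to 15.02 CPM around means of 238 to 297 CPM.

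Timp4 measured 3.40, 1.76 and 8.25 CPM in wild type, 7.58, 5.87 and 7.60 CPM in Arid2-labelled and 14.2, 6.61 and 8.44 CPM in Smarcb1-labelled libraries. The wild-type libraries were spread the most in proportion, and the log2 fold change of 1.12 (SE 0.50) for Smarcb1-labelled libraries had an adjusted p of 0.179 (edgeR). Timp1, the inhibitor best known for its induction in inflammation and wounds, stayed at 1.52 to 5.30 CPM, and its highest value lay in Smarcb1-labelled replicate 2. Timp1, Timp3 and Timp4 lie inside the synapsin genes Syn1, Syn3 and Syn2, and exons of Timp3 and Timp4 overlap them on the other strand, so their reads are uncertain without strand.

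Summed over genes and per kilobase, the Mmp total was lower in every labelled library than in every wild-type library. It was 86.9, 83.0 and 83.6 CPM per kilobase in wild type, 59.5, 60.1 and 66.3 in the Arid2-labelled and 61.8, 71.5 and 68.3 in the Smarcb1-labelled libraries. Much of this sum is Mmp2, Mmp14, Mmp15 and Mmp11. The trend with GC content was not removed from these sums. With 3 libraries a group the smallest p that an exact permutation test can give is 0.1, so no test was made of the sums.

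The Adamts total did not separate the groups, at 27.2 to 32.4 CPM per kilobase over all 9 libraries. The Timp total was 174 to 193 CPM per kilobase in wild type, 152 to 186 in Arid2-labelled and 164 to 269 in Smarcb1-labelled libraries. The ratio of the Timp to the Mmp total was 2.11, 2.10 and 2.30 in wild type, 3.13, 3.07 and 2.29 in Arid2-labelled and 2.87, 2.30 and 3.94 in Smarcb1-labelled libraries. In each labelled group 1 library lay within the wild-type range and the other 2 above it. The ratio of Mmp2 to its activator Mmp14 was 1.71 to 2.23 in wild type, 1.89 to 2.495 in Arid2-labelled and 1.17 to 1.59 in Smarcb1-labelled libraries, the last below both other groups. These are ratios of RNA levels and not of enzyme or inhibitor protein.

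**Figure D4:**
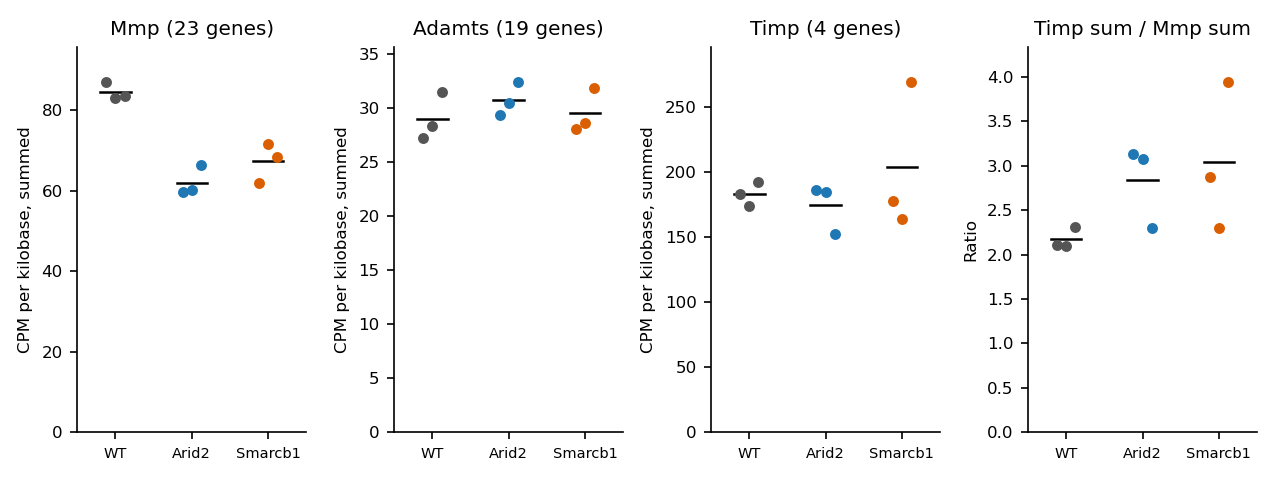
Summed CPM per kilobase of the Mmp, Adamts and Timp genes and the ratio of the Timp to the Mmp total in each library (points), with the group mean (bar, n = 3). All 6 labelled libraries lie below the wild-type Mmp totals of 83.0 to 86.9, while the Adamts totals overlap.

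Genes around the members were taken from 5 lists of the plasminogen system, other regulators, ADAM sheddases, astacin proteases and matrix substrates. The lists were chosen with earlier results of these data known, so a share above the background is no independent evidence about them. Col1a2, Col3a1, Dcn and Lum stand in both the substrate and the fibroblast list. In Arid2-labelled against wild-type libraries 0 genes of the 5 lists were called by edgeR, with 14 of 54 tested at an unadjusted p under 0.05, against 14.9% of all genes. In Smarcb1-labelled against wild-type libraries 0 were higher and 7 lower of the 54 (13.0%), where 7.9% of all genes were called, and the others did not pass the test. The 7 were 1 of 7 tested in the plasminogen system (Serpinf1), 1 of 16 regulators (Pcolce), 1 of 8 sheddases (Adam15), 1 of 2 astacins (Bmp1) and 3 of 21 substrates (Col5a1, Col1a1 and Col1a2).

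Of the 7, Bmp1 removes the carboxy-terminal propeptide of procollagens, and Pcolce enhances that cut. Bmp1 measured 62.2 to 70.9 CPM in wild type and 37.9 to 48.2 CPM in Smarcb1-labelled libraries and fell by 0.57 on the log2 scale (SE 0.12, adjusted p = 0.0280, edgeR). Pcolce measured 90.8 to 114 and 52.1 to 68.1 CPM and fell by 0.78 (SE 0.14, adjusted p = 0.0175, edgeR). The called collagen genes, 3 of 21 substrates, were Col1a1, which fell by 1.06 (SE 0.19), Col5a1 by 0.95 (SE 0.13) and Col1a2 by 0.57 (SE 0.13). Other genes of procollagen processing were not called: Adamts3 had a log2 fold change of 0.64, Adamts14 of -0.68 and Pcolce2 of -0.42. With the GC trend removed, Pcolce stayed called and Bmp1, Col1a1, Col1a2 and Col5a1 did not. With the parathyroid markers as a covariate, only Col5a1 of these 5 stayed called (adjusted p = 0.0365). Col5a1 kept its call whichever library was left out. Smarcb1-labelled replicate 3 ended the calls of the other 4 when left out (0.0648 for Bmp1, 0.0661 for Pcolce, 0.0648 for Col1a1 and 0.110 for Col1a2), as did wild-type replicate 3 for Bmp1 (0.0726), Pcolce (0.0545) and Col1a2 (0.0913). Wild-type replicate 1 and Smarcb1-labelled replicate 1 each ended those of Bmp1, Col1a1 and Col1a2, and wild-type replicate 2 and Arid2-labelled replicate 2 those of Bmp1 and Col1a2.

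Between the labelled groups, 15 of the 54 genes of these lists, chosen with earlier results known, were called (27.8%), against 16.3% of all genes. Of 7 plasminogen genes, 2 were higher in Smarcb1-labelled libraries and 0 lower. Serpine2, a serpin that blocks thrombin and plasminogen activators, rose by 1.63 on the log2 scale (SE 0.28, adjusted p = 0.0111, edgeR), and Plat, the tissue plasminogen activator, by 0.76 (SE 0.19, adjusted p = 0.0287, edgeR). Serpine2 lost its call without Arid2-labelled replicate 3 (0.0580), and Plat without any 1 of the 3 Arid2-labelled libraries (0.0658 to 0.0956) or Smarcb1-labelled replicate 1 (0.0556). Of 16 regulators 1 rose (Spock3, 1.47) and 4 fell, among them the proprotein convertase Pcsk6 (-1.24), Spock2 (-0.94) and Pcolce (-0.52). Adam15 (-0.80) and Bmp1 (-0.43) fell, and of 21 substrates 2 rose (Lum, 1.31, and Fbn2, 1.46) and 4 fell, with Col1a1 at -0.91 and Col5a1 at -0.80. Several of these calls were fragile: of 21 alternative analyses, Bmp1 lost its call in 14, Pcolce in 12, Spock2 in 10 and Adam15, Pcsk6 and Plat in 9 each. With the GC trend removed, Serpine2, Lum and Fbn2 stayed called. Plat, Spock3, Spock2, Pcsk6, Pcolce, Adam15, Bmp1, Col1a1 and Col5a1 did not, with Bmp1 at -0.04 (adjusted p = 0.846). With the parathyroid markers as a covariate none of the genes named here stayed called (adjusted p of 0.0709 or more). Lum is also a fibroblast marker, a list of which 2 of 10 rose and 1 fell in this comparison.

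GC content moved with the Smarcb1-labelled fold changes over all genes. The median log2 fold change against wild type was 0.34 for genes under 40% GC, -0.06 at 50% to 55%, -0.35 at 55% to 60% and -0.74 at 60% or more. Members are rich in GC, with a median of 53.7% against 49.8% for all tested genes, and the 15 members at 55% to 60% had a median of -0.43. The 6 members at 40% to 45% went the other way from all genes, with a median of -0.38 against 0.29. In the Arid2-labelled comparison the same medians of all genes ran only from -0.09 to 0.05. Between the labelled groups they were 0.42 under 40% GC, -0.41 at 55% to 60% and -0.77 at 60% or more. With the trend removed, 1 member was called in Smarcb1-labelled against wild-type libraries (Adamts1, log2 fold change 1.08, adjusted p = 0.0302, edgeR) in place of 3. Between the labelled groups 5 were called (Adamts20, Adamtsl2, Mmp14, Mmp27 and Timp2).

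**Figure D5:**
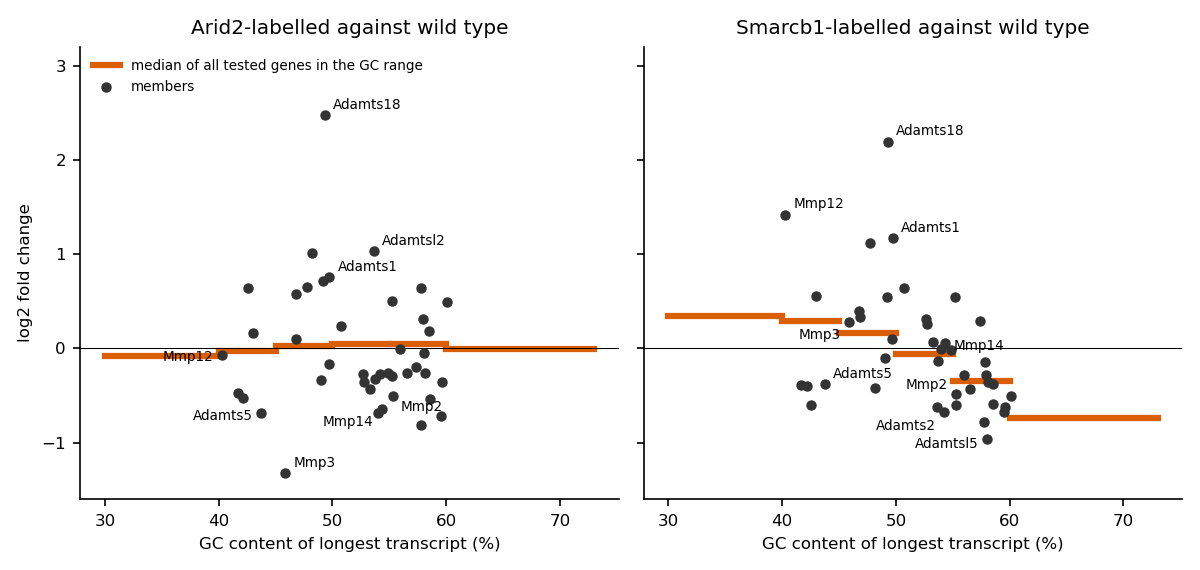
Log2 fold change of each tested member (points) against the GC content of its longest transcript in percent, for both labelled groups against wild type, with the median of all tested genes in each GC range (bars). In the Smarcb1-labelled panel the bars step down from 0.34 to -0.74; Adamts1 lies above them and Mmp2 and Adamts2 lie near or below them.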

How the data were processed

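Per the labels' protocols, thyroids were flash frozen, RNA was taken up in TRIzol, and sequencing libraries came from the Illumina TruSeq RNA kit. The authors deposited raw counts of reads per gene for the 9 libraries in 1 table, which is the only unit used. Per the submitters' processing notes, the tools included HTSeq 0.6.1, STAR 2.4 and DESeq2 and the build was mm9. Whether counting used strand is not given in the sources used here. Genes with symbols matching the 4 families formed the set, and these members and all gene lists were chosen with earlier results of these data known.

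Counts were tested as deposited with edgeR 4.0.16 (R 4.3.3): TMM scaling, a filter on low counts by group (filterByExpr), 1 quasi-likelihood fit of 3 group means over 9 libraries with 6 residual degrees of freedom, and Benjamini-Hochberg adjustment over 17079 genes at a threshold of 0.05. CPM are TMM-scaled. Lengths and GC content came from the longest GENCODE M21 transcript (GRCm38), with 51 of 51 members matched, and promoters from RefSeq. GC content was known for 97.2% of tested genes, and its trend was removed as a spline offset with 5 degrees of freedom. Depth per library stands in the opening of the results, and the limit for 0 counts is 3 counts and covers counting error only. Replicates of a group differed by more than sampling noise.

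Members named with values were the Timp genes, all called members, the 4 Mmp, 4 Adamts and 2 Adamtsl genes highest per kilobase, and members with an unadjusted p under 0.01. From the other lists, up to 4 called genes per list were named. Alternatives were DESeq2 size factors, library totals, no filter, a filter at 1 CPM, the Wald test of DESeq2 1.42.0, a fit of 6 libraries, an adjusted p under 0.01, the GC trend removed, parathyroid or fibroblast markers as a covariate, leaving out each library or both libraries with thymocyte markers, exon-union lengths, and limma-voom (limma 3.58.1), which was chosen after seeing the data. The procedure was also run on simulated counts. These held no GC trend and no uneven tissue content, so that run does not bear on either.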

Additional observations from a re-analysis of the deposited data

How the results depend on the processing

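Of the called values, 224 of 356 alternative fits between the labelled groups and 147 of 210 for Smarcb1-labelled against wild type kept the call, and the others kept only the direction. The cause of any shift below was not tested. The count of members called in Arid2-labelled against wild type (0) was 1 with DESeq2's size factors, the 1 CPM filter, 6 libraries or the GC trend removed, 6 with DESeq2's Wald test, and 0 to 1 with 1 library left out. In Smarcb1-labelled against wild type (3) it was 5 with the Wald test, 1 with 6 libraries, the GC trend removed or the parathyroid covariate, 0 at an adjusted p under 0.01, and 0 (without wild-type replicate 1) to 4 with 1 library left out. Between the labelled groups (5) it was 3 with no filter or 6 libraries, 9 with the Wald test, 1 with the fibroblast covariate, 0 with the parathyroid covariate or at 0.01, and 0 (without Arid2-labelled replicate 3) to 5.

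Over all genes, the 95 calls of Arid2-labelled against wild type became 882 (Wald test), 201 (6 libraries), 8 (0.01), 172 (GC trend), 20 (fibroblast covariate), 56 (without both libraries with thymocyte markers) and 5 (without Arid2-labelled replicate 2) to 167 (without Smarcb1-labelled replicate 1). The 1349 of Smarcb1-labelled against wild type became 2768, 486, 192 and 358 in the first 4 of these settings, 197 with the parathyroid covariate, 2166 without the libraries with thymocyte markers, and 344 (without Smarcb1-labelled replicate 3) to 2538 (without replicate 2). The 2779 between the labelled groups became 4337, 1348, 324 and 981, 145 with the parathyroid and 397 with the fibroblast covariate, and 395 (without Arid2-labelled replicate 3) to 4411 (without Smarcb1-labelled replicate 2). Library totals gave 1258 higher and 1148 lower there, against 1187 and 1592. Limma-voom moved no count by over 1.5 times.

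Exon-union lengths, longer by construction, lowered the mean Mmp sums to 69.2, 51.2 and 53.7 CPM per kilobase in wild-type, Arid2-labelled and Smarcb1-labelled libraries (from 84.5, 62.0 and 67.2), the Adamts sums to 20.3, 21.6 and 21.3, and the Timp sums to 137.6, 126.3 and 147 (from 183, 174 and 204).

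Signs turned only for log2 fold changes that were not called. Without both libraries with thymocyte markers they were -0.041 for Timp3 (Arid2-labelled against wild type), -0.48 for Timp1 (Smarcb1-labelled against wild type), and -0.064 for Mmp2 and -0.18 for Timp1 (between the labelled groups), where Mmp2 was also -0.0012 with no filter and Timp4 -0.33 with the fibroblast covariate. With 1 library left out, Arid2-labelled against wild type gave -0.0086 to 0.26 for Timp3, -0.29 to 0.079 for Adamtsl5 and -0.62 to 0.12 for Timp1. Smarcb1-labelled against wild type gave -0.43 to 0.73 for Timp1, -0.034 to 0.14 for Mmp14 and -0.11 to 0.57 for Timp3. Between the labelled groups the ranges were -0.042 to 0.056 for Mmp2, -0.080 to 0.88 for Timp1 and -0.22 to 0.47 for Timp3. No paired analysis was possible because the labels give the groups no shared replicate numbers. Genes under about 1 CPM rest on few reads, which limits the precision of Mmp27, Adamts18 and Mmp13.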
